A study of Mus musculus with 6 samples.

Results

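Cornification is the last step of keratinocyte life, in which the living cell is turned into a dead, cross-linked scale of the stratum corneum. Transglutaminases join proteins such as loricrin, involucrin and the small proline-rich proteins into the cornified envelope under the plasma membrane, peptidylarginine deiminases turn arginine into citrulline in filaggrin and keratins, and the proteases Casp14 and Asprv1 take part in the processing of filaggrin. The genes described here are 10 of these enzymes and partners: the transglutaminase genes Tgm1, Tgm3 and Tgm5, the deiminase genes Padi1, Padi2, Padi3 and Padi4, the protease genes Casp14 and Asprv1, and Cnfn, which encodes the envelope component cornifelin. They were chosen by gene name, and each of the 10 names matched 1 row of the 54532 in the expression table.

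The RNA came from mouse back epidermis, with 3 control and 3 knockout samples. All samples carried floxed alleles of Spry1 (Spry1flox/flox), the gene of Sprouty1, which dampens signalling downstream of growth factor receptors, and tamoxifen in corn oil was gavaged to all mice at a dose of 0.1 mg/g, 4 times weekly within 4 weeks. The knockout samples (Spry1_KO) carried K14-Cre-ERT2 as well, a tamoxifen-activated Cre recombinase driven by the keratin 14 promoter of basal keratinocytes, and the controls carried no Cre. Because Cre was present in the knockouts alone, its own effect and that of Spry1 loss cannot be told apart. The labels give neither ages nor whether the samples are separate animals, so the p-values reflect spread among these samples, part of which may be technical.

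FPKM values of Spry1 were 25.8, 28.2 and 34.4 in the control samples, set against 1.06, 1.49 and 1.28 in knockout samples, where FPKM is the number of fragments scaled to gene length and library size. The epidermal keratin Krt14 was at least 2170 FPKM in each sample, whereas the 6 markers of the inner root sheath of the hair follicle summed to 0.819 to 1.19 FPKM in the controls and 1.84 to 4.94 FPKM in the knockouts. Control replicate 3 stood apart from the other controls on the second principal component (8.47% of the variance), and Spry1_KO replicate 2 alone had a clear level of the Y-linked gene Eif2s3y (19.3 FPKM, at most 0.203 FPKM elsewhere). For some of the results that rest on these samples, values without them are therefore given too. The samples held 18383323 to 21024714 reads each, as recovered from FPKM.

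The promoters of 4 members are shown because these genes had the largest change (Casp14), were near 0 in the controls (Padi1), varied most between the knockout samples among the transglutaminases (Tgm3) or held the largest number of motifs (Padi4). Each run is the 150 bases before the RefSeq start site on GRCm38.p6, read along the gene's strand, with capitals marking TGANTCA, the AP-1 motif, or TATAAA, the TATA box.
Casp14, chr10:78718294-78718443, minus strand: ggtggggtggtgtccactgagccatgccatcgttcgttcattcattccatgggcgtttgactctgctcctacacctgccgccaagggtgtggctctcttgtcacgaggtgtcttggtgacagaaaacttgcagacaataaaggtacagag
Padi1, chr4:140845779-140845928, minus strand: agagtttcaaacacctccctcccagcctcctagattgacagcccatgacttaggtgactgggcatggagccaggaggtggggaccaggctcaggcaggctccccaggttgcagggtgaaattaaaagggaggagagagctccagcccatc
Padi4, chr4:140774204-140774353, minus strand: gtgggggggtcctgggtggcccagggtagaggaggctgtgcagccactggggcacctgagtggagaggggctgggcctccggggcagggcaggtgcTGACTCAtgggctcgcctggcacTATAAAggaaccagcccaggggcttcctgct
Tgm3, chr2:130012190-130012339, plus strand: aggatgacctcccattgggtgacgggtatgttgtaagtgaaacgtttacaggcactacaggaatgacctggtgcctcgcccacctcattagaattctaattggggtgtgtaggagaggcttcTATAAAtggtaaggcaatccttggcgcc

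Windows from 250 bases before to 50 bases after the start were searched on both strands for these motifs, for the AP-2 motif GCCNNNGGC and for the E-box CACGTG. All 10 members had a window, and Tgm1 had 2. TGANTCA was found in 1 of these 11 windows, that of Padi4, against 7.81% of 32851 windows in the RefSeq table. TATAAA was found in the windows of Padi4 and Tgm3 (13.6% of all windows), 31 and 28 bases before the start. GCCNNNGGC was found in those of Cnfn, Padi2 and Padi4 (16.6% of all windows) and CACGTG in that of Padi4 (7.15% of all windows). The Padi4 matches to TGACTCA and TATAAA do not overlap, and such matches describe letters only.

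Of the 10 members, 7 passed the filter of a mean of at least 1 FPKM. Of these, 5 rose in the knockout and none fell: Tgm1, Tgm3, Tgm5, Casp14 and Cnfn (limma, Benjamini-Hochberg adjusted p under 0.05 over 12629 genes). Asprv1 and Padi2 did not pass. Among all tested genes 54.0% passed, 29.6% as higher and 24.4% as lower in the knockout. The median log2 fold change of the 7 tested members was 1.46, beside 0.03 over all tested genes. In FPKM, the lowest knockout sample lay above the highest control sample for each of the 10 members. That order was met by 34.9% of tested genes and by 9.15% of genes that were detected but lay below the filter. It did not hold for Padi2 in recovered reads, which were 103, 105 and 72 in the controls and 200, 101 and 136 in the knockouts. The 10 members summed to 578, 640 and 208 FPKM in the control samples, set against 1203, 1198 and 1160 in knockout samples, with Asprv1 the highest member in each. In bulk tissue a larger share of cells of one layer and more RNA per cell cannot be told apart.

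Markers of the cell types in the tissue moved between the groups as well. Among 5 basal and 5 suprabasal keratinocyte markers, 2 rose and 3 fell in each list. Melanocyte markers rose (5 of 5, sums of 7.93 to 11.0 and 207 to 211 FPKM), and those of T cells and Langerhans cells fell (4 of 4 each). Skeletal muscle markers fell (6 of 6 tested, sums of 17.8 to 66.4 and 3.89 to 5.84 FPKM), as did 3 of 5 tested fibroblast markers (sums of 7.59 to 16.4 and 2.0 to 6.81 FPKM). Of these, Acta1, Atp2a1, Ckm, Pvalb, Tnnt3, Col1a2, Col3a1 and Dpt had knockout means under 1 FPKM and passed the filter through the controls alone. Among the melanocyte markers, Mlana and Tyr passed it through the knockouts alone. Calls of such genes are description only. Sebaceous gland markers summed to 24.4, 30.8 and 4.49 FPKM in control replicates 1, 2 and 3 and to 43.3 to 89.3 FPKM in the knockouts, and 1 of 4 tested, Elovl3, rose. Their level in control replicate 3 was low, as that of Asprv1 was. Their part in the levels of the 10 members was not tested.

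**Figure D1:**
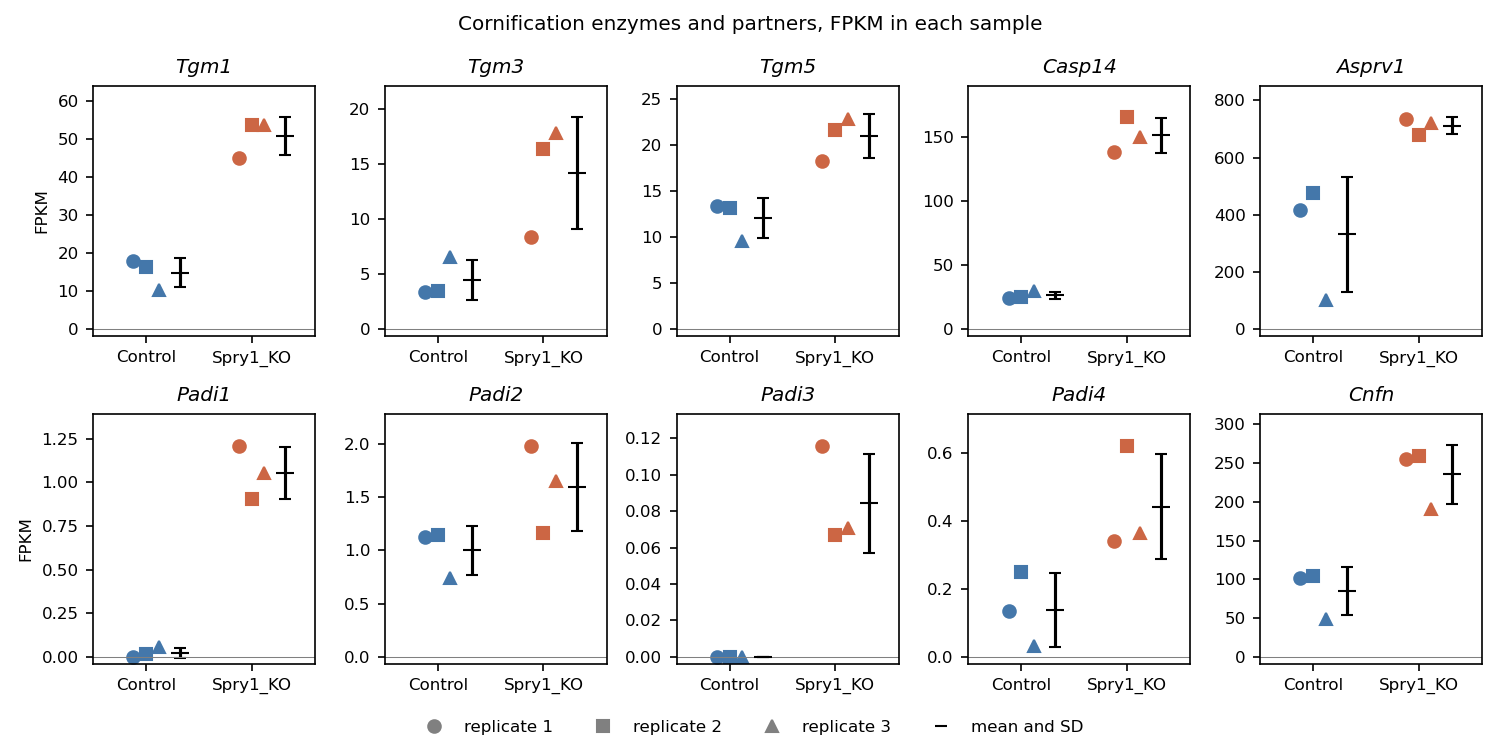
FPKM of the 10 members in each sample, with a panel and a linear axis that includes 0 for each gene; symbols mark the replicate, and the black bar gives the mean and SD of 3 samples. The knockout samples lie above the control samples in each panel, by a wide gap for Casp14 and Padi1 and by a narrow one for Padi2.

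Tgm1 encodes the membrane-bound transglutaminase of keratinocytes, whose loss in people causes lamellar ichthyosis. It lies on chromosome 14 (chr14:55700009-55713926, minus strand, GRCm38). FPKM values of Tgm1 were 17.8, 16.4 and 10.4 in the control samples, set against 44.9, 53.6 and 53.7 in knockout samples. The 3 knockout samples were close to each other, and control replicate 3 was the lowest control. This was a log2 fold change of 1.73 ± 0.19 (SE; limma, adjusted p = 0.000475), on the scale of log2(FPKM + 1). It was 1.51 without control replicate 3.

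Tgm3 encodes a cytosolic transglutaminase of epidermis and hair follicle that is activated by proteolysis (chr2:130012349-130050399, plus strand). FPKM values of Tgm3 were 3.37, 3.45 and 6.54 in the control samples, set against 8.41, 16.4 and 17.8 in knockout samples. Here control replicate 3 was the highest control, and Spry1_KO replicate 1 stood well below the other knockouts at 0.492 times their mean. The gap between the groups was therefore set by these 2 samples. This was a log2 fold change of 1.46 ± 0.32 (SE; limma, adjusted p = 0.00781). It was 1.72 without control replicate 3 and 1.78 without Spry1_KO replicate 1.

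Tgm5 encodes a further epidermal transglutaminase, whose loss in people causes acral peeling skin (chr2:121046111-121085841, minus strand). FPKM values of Tgm5 were 13.4, 13.2 and 9.55 in the control samples, set against 18.2, 21.6 and 22.8 in knockout samples. Its rise was the smallest of the 3 transglutaminases, with a log2 fold change of 0.76 ± 0.15 (SE; limma, adjusted p = 0.00499). With each sample scaled to the same FPKM sum (TPM scaling) the log2 fold change of Tgm5 was 0.50, with a limma adjusted p of 0.00827.

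Casp14 encodes caspase-14, a protease of cornifying keratinocytes that helps break down filaggrin (chr10:78711991-78718294, minus strand). FPKM values of Casp14 were 24.1, 25.1 and 29.5 in the control samples, set against 138, 165 and 150 in knockout samples. The samples of each group were close together and far from those of the other. The mean went from 26.3 ± 2.87 to 151 ± 13.7 FPKM (SD, n = 3 each), or 5.74 times the control mean. The log2 fold change was 2.48 ± 0.11 (SE), the largest of the tested members, with a limma adjusted p of 1.7e-05.

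Asprv1 encodes a retroviral-like aspartic protease that cuts profilaggrin (chr6:86628164-86629710, plus strand). FPKM values of Asprv1 were 416, 476 and 102 in the control samples, set against 735, 679 and 722 in knockout samples. Control replicate 3 was at 0.229 times the mean of the other controls, and the knockout samples were near each other. The log2 fold change was 1.38 ± 0.55 (SE), with a 95% interval of 0.08 to 2.68 and a limma adjusted p of 0.0705. Without control replicate 3 the difference was smaller and passed, with a log2 fold change of 0.68 and a limma adjusted p of 0.00416. It passed as well without control replicate 2 (1.78, limma adjusted p of 0.0397) and with both control replicate 3 and Spry1_KO replicate 2 removed (0.71, limma adjusted p of 0.0126). Without control replicate 1, or without any 1 of the knockout samples, it did not pass (limma adjusted p of 0.0648 to 0.149). With control replicate 3 left out 31.6% of tested genes were higher and 26.3% lower, and 6 of the 7 tested members rose.

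Cnfn encodes cornifelin, a small protein of the cornified envelope (chr7:25367620-25369724, minus strand). FPKM values of Cnfn were 102, 104 and 49.5 in the control samples, set against 256, 259 and 191 in knockout samples. Control replicate 3 was again the lowest control, and Spry1_KO replicate 3 the lowest knockout. This was a log2 fold change of 1.52 ± 0.30 (SE; limma, adjusted p = 0.00508), and 1.17 without control replicate 3.

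**Figure D2:**
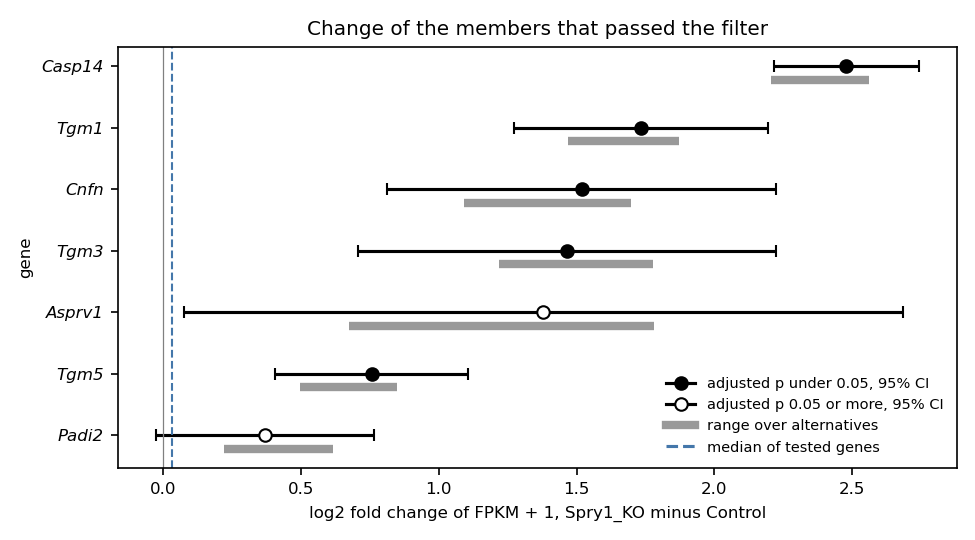
Log2 fold change of FPKM + 1 (Spry1_KO minus Control) of the 7 members that passed the filter, with 95% intervals; grey bars give the range over the alternative settings and the dashed line the median of all tested genes (0.03). Casp14 is the highest at 2.48, and the widest interval is that of Asprv1, from 0.08 to 2.68.

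The deiminase genes stood well below the other members. They lie beside each other on chromosome 4, with Padi6, Padi4, Padi3 and Padi1 on the minus strand followed by Padi2 on the plus strand. Padi1 and Padi3 encode the deiminases of cornifying epidermis and hair follicle, Padi2 a widely expressed form, and Padi4 a form best known from neutrophils, where it acts on histones. FPKM values of Padi2 (chr4:140906344-140952586) were 1.13, 1.15 and 0.737 in the control samples, set against 1.99, 1.16 and 1.65 in knockout samples. Spry1_KO replicate 2 lay barely above the highest control. The log2 fold change of Padi2 was 0.37 ± 0.17 (SE), with a 95% interval of -0.03 to 0.76 and a limma adjusted p of 0.100. Without Spry1_KO replicate 2 it was 0.50 and did not pass either (limma adjusted p of 0.0523).

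Padi1, Padi3 and Padi4 lay below the filter and were not part of the test over 12629 genes. FPKM values of Padi1 (chr4:140812983-140845778) were 0, 0.0146 and 0.0547 in the control samples, set against 1.21, 0.906 and 1.05 in knockout samples. In reads recovered from FPKM this was 0, 1 and 4 against 91, 59 and 65. The control samples held almost no Padi1 reads, and the knockout samples held similar numbers. The ratio of the summed rates, 215 against 5 reads, was 40.8, with an exact 95% interval of 17.2 to 127 that covers counting error only. Control replicate 3 held 4 of the 5 control reads, and without it the ratio was 135 (23.9 to 5351).

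FPKM values of Padi4 (chr4:140745865-140774236) were 0.136, 0.249 and 0.0318 in the control samples, set against 0.340, 0.620 and 0.365 in knockout samples. It held 37 control and 114 knockout reads in all, a ratio of rates of 2.93 (exact 95% interval 2.0 to 4.36, counting error only), and 2.10 without control replicate 3. Padi3 (chr4:140785365-140810648) was listed at 0 in each control and read 0.115, 0.0669 and 0.0705 FPKM in the knockouts. Against a limit of 3 reads over the control group, the 16 knockout reads of Padi3 made a rate 5.06-fold higher, and 3.35-fold without control replicate 3. Both ratios leave out the counting error of the 16 reads, so they are not lower limits.

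With 3 samples against 3 the exact two-sided permutation test cannot go below 0.1, which it gave for each of Padi1, Padi3 and Padi4. In the limma test with no filter, Padi1 and Padi3 passed (adjusted p of 0.000756 and 0.0214) and Padi4 did not (0.0636), where 14.1% of all detected genes were higher. In a limma-voom test on the recovered reads over genes with at least 10 reads in all, chosen after seeing the data, Padi1, Padi3 and Padi4 passed (adjusted p of 0.000485, 0.00676 and 0.0358), where 17.7% of genes were higher. Padi1 and Padi3 met that minimum only through their knockout reads. Padi3, at 0 in each control, also entered the test with no filter only through its knockout samples. The passing of Padi1 and Padi3 is therefore a description and lends no support.

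Markers of neutrophils and macrophages are given beside Padi4. The 10 neutrophil markers summed to 0.0831 to 1.65 FPKM in the controls and 2.93 to 8.76 FPKM in the knockouts. Elane was at 0 in each sample, Mpo was at most 0.0533 FPKM, and Cxcr2, the single marker that passed the filter, rose from at most 0.108 FPKM to 1.83 to 5.30 FPKM. Cxcr2 passed it through its knockout samples alone. The 7 macrophage markers summed to 16 to 27.7 FPKM in the controls and 56.6 to 108 FPKM in the knockouts. Of 6 tested, 4 rose and Adgre1 fell. Among those that rose, Mrc1 and C1qc had control means of 0.207 and 0.999 FPKM and passed the filter through their knockout samples. Within the groups these sums followed Padi4 in some cases only. Spry1_KO replicate 2 had the highest Padi4 and the lowest sums of the knockouts. In the controls the macrophage sums had the same order as Padi4, highest in control replicate 2 and lowest in control replicate 3. Control replicate 3 had the lowest Padi4 and the highest neutrophil sum of the controls, but Ltf alone gave 1.47 FPKM of that sum. The part of neutrophils and macrophages in the levels of Padi4 and Padi2 was not tested. Inner root sheath markers, of a site where Padi3 and Tgm3 are used, were each at most 1.49 FPKM in any sample, and none passed the filter. Krt28 had a lower mean in the knockouts (0.150 against 0.439 FPKM) and the others of that list a higher one. The list summed to 4.94, 1.84 and 2.39 FPKM in Spry1_KO replicates 1, 2 and 3. The highest sum was in the sample with the lowest Tgm3 and the highest Padi3 of the knockouts. That order of Padi3 rests on 8, 4 and 4 reads in replicates 1, 2 and 3. Hair shaft markers went the other way, with sums of 0.399 to 0.734 FPKM in the controls and 0.0254 to 0.0384 FPKM in the knockouts. None of them passed the filter. The part of either list in the levels of Padi3 and Tgm3 was not tested.

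**Figure D3:**
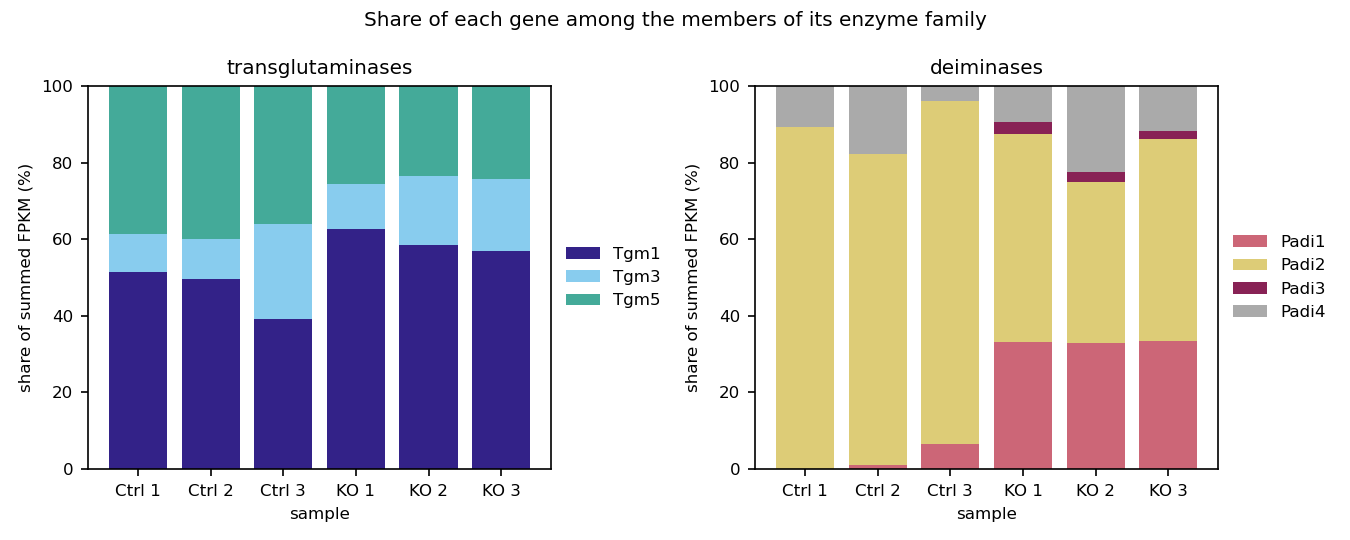
Share of each gene in the summed FPKM (percent) of the 3 transglutaminase members (left) and the 4 deiminase members (right), with 1 bar per sample. Padi1 takes 32.9% to 33.6% of the deiminase sum in the knockout samples and at most 6.64% in a control, and the share of Tgm5 among the 3 members is lower in each knockout.

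The share of each member in the summed FPKM of the members of its family was compared between the groups. Such shares compare genes per length within a sample and do not depend on the scaling between samples. Tgm1 made up 51.5%, 49.7% and 39.3% of the summed FPKM of Tgm1, Tgm3 and Tgm5 in the controls and 62.8%, 58.5% and 56.9% in the knockouts. Tgm5 made up 38.7%, 39.9% and 36.0% in the controls and 25.5%, 23.6% and 24.2% in the knockouts. The shares of Tgm1 and Tgm5 did not overlap between the groups, while those of Tgm3 did (9.76% to 24.7% and 11.8% to 18.9%). These sums leave out Tgm7 and Tgm2. With all 7 Tgm genes in the sum, chosen after seeing the data, the shares of Tgm5 overlapped (29.1%, 32.7% and 23.2% against 24.8%, 23.4% and 23.8%, exact permutation p of 0.4). Those of Tgm1 did not overlap in that sum either (38.7%, 40.7% and 25.3% against 61.2%, 57.9% and 56.0%, exact permutation p of 0.1).

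Among the deiminases, Padi2 had a share of 86.7% ± 4.65 in the controls and 49.7% ± 6.61 in the knockouts (SD, n = 3 each), with no overlap. Padi1 had a share of 0%, 1.03% and 6.64% in the controls and of 33.1%, 32.9% and 33.6% in the knockouts. For the shares of Tgm1, Tgm5, Padi1, Padi2 and Padi3 the exact two-sided permutation p was 0.1, the smallest that 3 against 3 samples can give, and 0.14 after adjustment over the 7 shares. For Tgm3 and Padi4 the exact p was 0.8 and 0.6.

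By level per length, the order of the members was nearly the same in both groups. In the controls it ran Asprv1 (332 FPKM), Cnfn (85.2), Casp14 (26.3), Tgm1 (14.9), Tgm5 (12.0), Tgm3 (4.45), Padi2 (1.0), Padi4 (0.139), Padi1 (0.0231) and Padi3 (0). The ranges of Asprv1 and Cnfn overlapped there, as did those of Tgm1 and Tgm5, of Padi4 and Padi1, and of Padi1 and Padi3. In the knockouts Padi1 (1.05 FPKM) stood above Padi4 (0.441 FPKM), and the one overlap between neighbours in that order was between Padi2 and Padi1.

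Control replicate 3 departed from the other controls in opposite ways for different members. Relative to the mean of control replicates 1 and 2, it read 0.165 times for Padi4, 0.229 times for Asprv1, 0.480 times for Cnfn, 0.610 times for Tgm1, 0.648 times for Padi2 and 0.719 times for Tgm5. For Casp14 it read 1.20 times and for Tgm3 1.92 times that mean. Its recovered reads (18949498) were not fewer than those of the other controls. Filaggrin and loricrin were low in the same sample: Flg read 2.53, 2.30 and 0.493 FPKM and Lor 1135, 995 and 238 FPKM in control replicates 1, 2 and 3.

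Annotated genes overlap Tgm1, Tgm3, Tgm5, Padi1 and Padi2, on the opposite strand for 5 of 6. The highest value of any of these overlapping genes was 0.332 FPKM. Whether the counting used strand is not given in the sources used here.

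The rise of Tgm5 was not shared by the transglutaminase gene next to it. Tgm7, a little studied member of the family, lies 7723 bases from Tgm5 on the same strand (chr2:121093565-121109795). FPKM values of Tgm7 were 9.59, 5.85 and 11.4 in the control samples, set against 0.0925, 0.0804 and 0.0565 in knockout samples. Each knockout sample was far below each control, and Tgm7 passed the filter through its control samples alone. The log2 fold change of Tgm7 was -3.16 ± 0.21 (SE; limma, adjusted p = 7.84e-05). Epb42, the inactive relative on the other side of Tgm5, was at most 0.0459 FPKM in any sample.

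Of 7 other genes of both enzyme families, Tgm7 and Tgm2 passed the filter, so 1 fell and none rose. FPKM values of Tgm2, the widely expressed transglutaminase, were 1.43, 1.08 and 2.84 in the control samples, set against 1.37, 0.638 and 1.27 in knockout samples (limma adjusted p of 0.254). Padi6, a deiminase of oocytes, was listed at 0 in each sample. Around the Padi genes, within 150 kb of Padi1, the flanking genes Arhgef10l, Rcc2 and Sdhb rose (log2 fold changes of 1.05, 1.11 and 0.74) and Atp13a2 fell (-0.30). Their limma adjusted p values were 0.000911, 9.97e-05, 0.000825 and 0.0415.

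**Figure D4:**
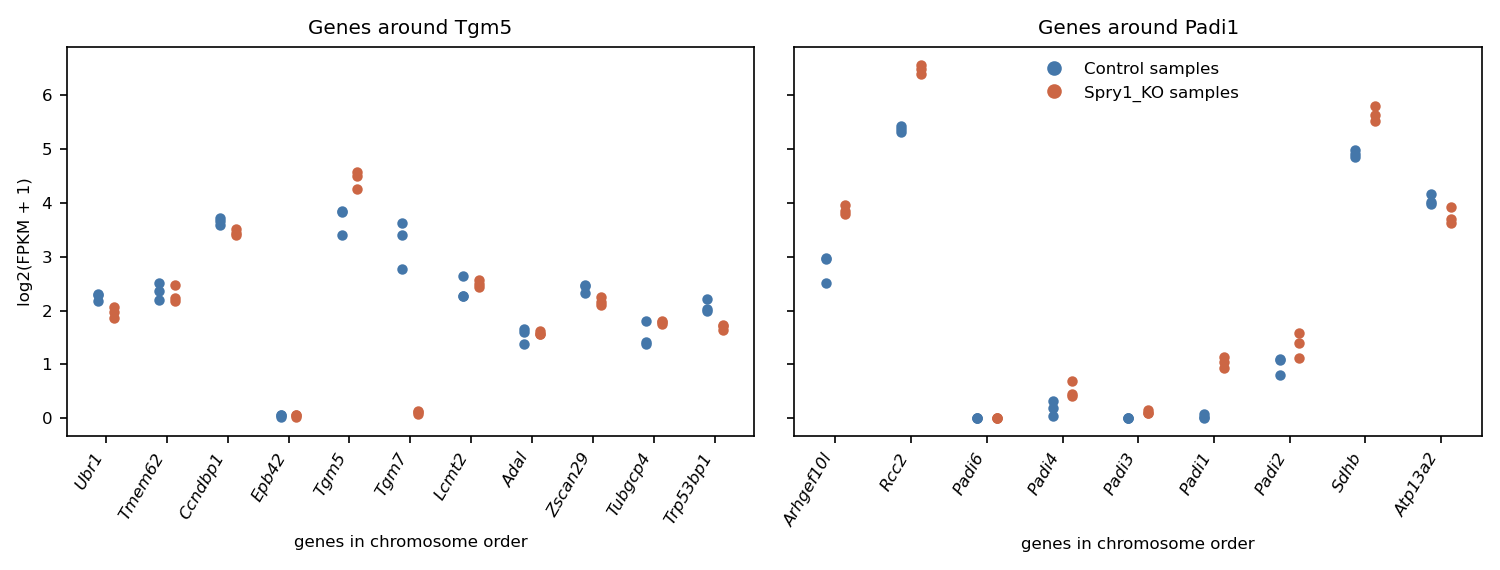
log2(FPKM + 1) in the control and knockout samples for protein-coding genes within 150 kb of Tgm5 (left) and of Padi1 (right), in chromosome order. Tgm5 is higher and its neighbour Tgm7 lower in each knockout sample, and the Padi genes are low beside the genes that flank them.

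RNA levels of the genes for the substrates of these enzymes moved both ways. Of 14 transglutaminase substrates 12 were tested, of which 7 rose and 2 fell, with a median log2 fold change of 0.57. Among all tested genes 29.6% were higher and 24.4% lower. Sprr1b, the gene of a small proline-rich envelope protein, rose by 9.18 on the log2 scale. It passed the filter through its knockout samples alone (control mean of 0.316 FPKM). Flg, filaggrin, rose from 0.493 to 2.53 FPKM in the controls to 28.0 to 30.4 FPKM in the knockouts (3.53 ± 0.31, SE). Rptn, Sprr1a, Hrnr, Ivl and Tchh rose too (log2 fold changes of 4.30, 2.23, 1.05, 0.65 and 0.49), though Tchh kept its call in few alternatives. Flg2, filaggrin-2, fell from 11.7 to 42.2 FPKM to 1.57 to 1.85 FPKM, and Ppl, periplakin, fell by 1.08 on the log2 scale. Their limma adjusted p values were 8.33e-07 for Sprr1b, 0.000193 for Flg, 0.000825 for Flg2 and 0.000145 for Ppl.

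Lor, the main cargo of the envelope, read 597, 597 and 523 FPKM in the knockouts, within the range of its controls, and showed no difference past the threshold (limma adjusted p of 0.811). Without control replicate 3, 7 substrates rose and 4 fell, Lor among the latter with a log2 fold change of -0.90 and a limma adjusted p of 0.00223. With TPM scaling 6 substrates rose and 3 fell, where 16.3% of tested genes were higher and 35.3% lower. The same 5 members rose under TPM scaling as in the test on FPKM, although this scaling lowered the median of all tested genes from 0.03 to -0.20.

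Of 5 deiminase substrates 4 were tested, and 3 rose and 1 fell. Flg and Tchh are on both lists. Krt1, a suprabasal keratin, read 711 to 921 FPKM in the controls and 2402 to 3425 FPKM in the knockouts. Its partner Krt10 read 4693 to 5781 and 1936 to 3351 FPKM. Their log2 fold changes were 1.94 and -0.92 (limma, adjusted p = 0.000297 and 0.0173). The call for Tchh, the trichohyalin of the hair follicle, was lost in 10 of 16 alternatives (limma adjusted p up to 0.220, with TPM scaling). That for Krt10 was lost with no filter (0.201) and with a replicate block (0.0503).

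The other genes of filaggrin processing moved both ways as well. Of 12 tested, 3 rose, 2 fell and 7 did not pass, with a median log2 fold change of 0.05. Those counts are near the shares of all tested genes, 29.6% higher and 24.4% lower. Blmh, bleomycin hydrolase, which acts after Casp14 in the breakdown of filaggrin, read 27.7 to 30.3 FPKM in the controls and 83.1 to 98.9 FPKM in the knockouts (log2 fold change 1.59, limma adjusted p of 4.28e-05). Furin, a proprotein convertase, rose by 1.09 on the log2 scale with a limma adjusted p of 0.000217, and the kallikrein Klk14 by 1.76 with 0.00924. Klk14 passed the filter through its knockout samples alone (control mean of 0.363 FPKM). Hal, histidase, which turns filaggrin-derived histidine into urocanic acid, fell by 1.38 with a limma adjusted p of 0.000805, and the protease Capn1 by 0.43 with 0.00876. Without control replicate 3, 3 of these genes rose and 4 fell, and with TPM scaling 3 rose and 5 fell.

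**Figure D5:**
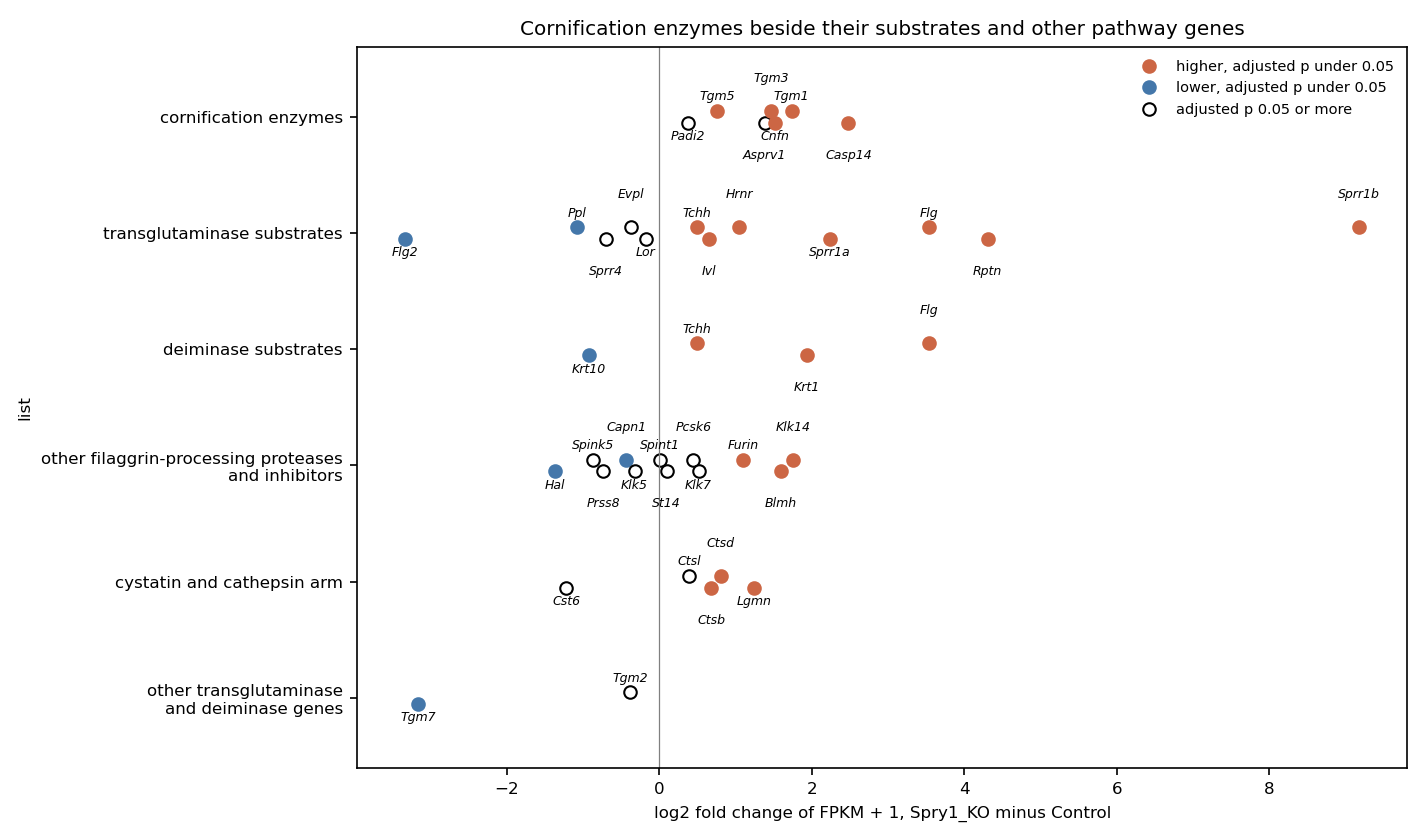
Log2 fold change of FPKM + 1 (Spry1_KO minus Control) of each tested gene, for 6 of the gene lists, with filled points for adjusted p under 0.05 (limma). The members lie from 0.37 to 2.48, while the lists of substrates and of other processing genes hold points on both sides of 0, from Flg2 at -3.33 to Sprr1b at 9.18.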

How the data were processed

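Total RNA from 6 samples of mouse back epidermis was sequenced, and the authors deposited 1 table of FPKM values with a column per sample. HISAT2 2.0.5, featureCounts 1.5.0-p3 and GRCm38 are named per the submitters' processing notes; no source used here gives the FPKM formula, the annotation release or the strandedness. Groups and replicate numbers came from the sample titles. FPKM multiplied by the exon length of GENCODE M21 gave whole multiples of one step for 97.5% to 97.9% of values under 1000 reads (tolerance 0.1 reads), including each value of the 10 members.

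Genes with a mean FPKM of 1 or more were tested two-sided in limma 3.58.1 (R 4.3.3), on log2(FPKM + 1) with a mean-variance trend and genotype alone. Adjustment followed Benjamini-Hochberg, at a threshold of 0.05. The mean was over all samples, so a gene near 0 in 1 group could pass the filter through the other alone. Calls of such genes are description only. A fold change on this scale understates the change of low genes. Family shares were tested by exact permutation (scipy 1.17.1). Sequences are RefSeq windows on GRCm38.p6. Of 128 listed gene names 127 matched. The result for 1 listed regulator is not reported here. The limma script was tested on simulated data.

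Named were the 10 members, Spry1, of each other list at most 4 called genes, those of lowest p (or 2 of highest level), and of the marker lists the sums and their highest gene; other names were chosen after their values were seen. The members and lists were chosen with earlier results of these data known. Alternatives were another pseudocount (0.1), other filters, median-ratio and TPM scaling, a replicate block, array weights, samples left out and limma-voom on recovered reads. Chi-square per gene between replicates was 13.9 to 82.7, above sampling noise for each pair.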

Additional observations from a re-analysis of the deposited data

How the results depend on the processing

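The calls for Tgm1, Tgm3, Tgm5, Casp14 and Cnfn were kept under each of the 16 alternatives, with adjusted p values of at most 0.00380, 0.0313, 0.0218, 0.000601 and 0.0219 in limma. Padi2 passed under none of them (adjusted p of 0.0523 to 0.318), and Asprv1 under 4 (0.00416 to 0.149). No member fell under any alternative. The count of risen members was 5 to 6 when a sample was left out and 7 with no filter, where Padi1 and Padi3 entered the test and were called. Padi3, at 0 in each control, entered that test only through its knockout samples. In limma-voom on recovered reads with at least 10 reads in all, chosen after seeing the data, 9 of the 10 members rose. Of these, 2 (Padi1 and Padi3) reached that minimum only through their knockout reads. In that test 17.7% of 19508 genes were higher and 26.3% (5125) lower. In the test on FPKM 29.6% of 12629 genes were higher and 24.4% (3079) lower. With TPM scaling 2058 of the 12629 genes were higher, against 3736 in the test on FPKM. Leaving out 1 sample gave 3112 to 3977 higher and 2424 to 3313 lower genes.

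No sign was seen over all genes that the replicate numbers pair the samples, though the values here cannot exclude pairing. The deviations of same-numbered samples from their group means had correlations of -0.0981, -0.111 and -0.125, and no control correlated best with the knockout of its own number. With a replicate block 3216 genes were higher and 2618 lower, and 5 members rose. The block lowered the SE of Tgm3 (0.32 to 0.19), Cnfn (0.30 to 0.17) and Asprv1 (0.55 to 0.48). It raised the SE of the other tested members. Counted in reads without length scaling, the share of Padi1 differed by 25.6 percentage points, against 30.6 in FPKM, and that of Padi3 by 1.99 against 2.61. With all 7 Tgm genes in the sum, chosen after seeing the data, the share of Tgm1 differed by 23.4 points, against 12.6, and that of Tgm5 by -4.35, against -13.8. Depth limits Padi1, Padi3 and Padi4, which held 5, 0 and 37 reads in the controls. The small groups limit Asprv1, whose spread rests on control replicate 3.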

Other observations

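Values are given here for genes that act on the enzymes or set the differentiation programme. Among all tested genes 29.6% were higher and 24.4% lower in the knockout, so single calls here are description only. Of 5 genes of the cystatin and cathepsin arm, whose cathepsins process transglutaminases, 3 rose and none fell (2 rose and 1 fell with TPM scaling). Lgmn, legumain, read 8.39 to 10.4 FPKM in the controls and 20.4 to 26.3 FPKM in the knockouts (log2 fold change 1.24, limma adjusted p of 0.000304). Ctsb and Ctsd rose by 0.68 and 0.80 on the log2 scale, with limma adjusted p values of 0.00301 and 0.0222, though Ctsd did not pass in 4 of 16 alternatives, among them TPM scaling (0.0570) and without Spry1_KO replicate 2 (0.0721). FPKM values of Cst6, an inhibitor of some of these proteases, were 597, 569 and 171 in the control samples, set against 165, 202 and 135 in knockout samples. It did not pass (limma adjusted p of 0.0653), and without control replicate 3 it fell by 1.81 on the log2 scale with a limma adjusted p of 0.000533.

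Some regulators of differentiation differed and others did not. Klf4, Ovol1 and Prdm1 did not pass (limma adjusted p of 0.181, 0.0716 and 0.177). Gata3, a regulator of barrier formation and hair follicle, read 77.5 to 96.3 FPKM in the controls and 14.6 to 22.5 FPKM in the knockouts (-2.23, limma adjusted p of 9.78e-05). Maf fell by 0.73 on the log2 scale (limma adjusted p of 0.00338). Trp63 and Zfp750 stood at the threshold (limma adjusted p of 0.0491, lower, and 0.0493, higher); Trp63 lost its call in 7 of 16 alternatives and Zfp750 in 11 of 16. Grhl3, known as an activator of Tgm1, read 31.4 to 37.1 FPKM in the controls and 32.4 to 38.8 FPKM in the knockouts (limma adjusted p of 0.561).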
